A study of Mus musculus with 12 samples.

Results

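The AP-1 and EGR immediate early genes described here are 10 genes, Fos, Fosb, Jun, Junb, Jund, Egr1, Egr2, Egr3, Ier2 and Nr4a1, taken by symbol from a count table of 31301 gene symbols. All 10 passed the filter on low counts and were among the 10861 genes tested. The table came from basophils that were grown from bone marrow of C57BL/6J WT mice for 7 days, either with 0.3 ng/mL of interleukin-3 (IL-3) or with 1 µg/mL of the epithelial cytokine thymic stromal lymphopoietin (TSLP), and then sorted. CD200R3+ bone marrow-derived basophils (BMBAs) were separated into FcεRIαhi CD49blo cells, called immature, and FcεRIαlo CD49bhi cells, called mature. Both stages were sequenced with both cytokines, which gave 4 groups of 3 libraries each, 12 in all, with no group grown without cytokine and none left unsorted. Replicates within a group are separate cultures per the study. Whether immature and mature cells of the same number came from the same culture is not given, and the stages were compared as unpaired. The labels give the TSLP dose in another unit in a further field, and the dose of the treatment protocol is the one stated here.

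Immediate early genes are transcribed within minutes of a signal, from promoters whose activators, such as SRF with its ternary complex factors and CREB, are already bound or ready in the cell, and many of their mRNAs are decayed quickly through AU-rich elements. Proteins of the Fos and Jun families pair to form the dimeric transcription factor AP-1, while the EGR proteins are zinc finger factors that bind GC-rich sites. In basophils and mast cells, crosslinking of FcεRI and cytokine receptor signals are well known inducers of these genes, and AP-1 is among the factors that act at type 2 cytokine genes. Comparisons between the stages ask how their mRNA levels differ with maturation, and comparisons between the cytokines ask whether the cytokine of the culture makes a difference at each stage.

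Promoter DNA of 4 members is shown because Fos, Fosb, Junb and Egr2 were all higher in mature than in immature cells of IL-3 culture and carry matches to motifs of signal-responsive factors close to their starts. The sequences are from RefSeq (GRCm38.p6), in which 7 of the 10 members had a window of 300 bases, 250 of them before the start. Egr1, Egr3 and Ier2 had none. Each stretch holds 130 bases, runs from base 140 to base 11 before the annotated start, is written 5′ to 3′ on the strand of the gene and touches no annotated exon. Capitals mark the letters TGACG (the core of the cAMP response element, on either strand), the CArG box bound by SRF, an EGR site and TATAAA. The stretches lie at chr12:85473750-85473879 (plus strand) for Fos, chr7:19310056-19310185 (minus strand) for Fosb, chr8:84978759-84978888 (minus strand) for Junb and chr10:67537730-67537859 (plus strand) for Egr2, where a longer Egr2 transcript has an intron.
Fos: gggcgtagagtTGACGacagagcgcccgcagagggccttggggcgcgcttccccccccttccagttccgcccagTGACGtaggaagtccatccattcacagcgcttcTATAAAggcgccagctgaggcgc
Fosb: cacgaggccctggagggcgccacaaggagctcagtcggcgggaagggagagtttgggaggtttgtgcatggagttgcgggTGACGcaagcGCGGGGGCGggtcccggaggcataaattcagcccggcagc
Junb: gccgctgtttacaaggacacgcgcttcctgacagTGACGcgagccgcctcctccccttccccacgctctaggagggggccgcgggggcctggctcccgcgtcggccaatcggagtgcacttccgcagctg
Egr2: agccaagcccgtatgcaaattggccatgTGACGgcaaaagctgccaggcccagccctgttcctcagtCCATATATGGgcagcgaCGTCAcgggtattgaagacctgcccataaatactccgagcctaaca
Fos held 2 TGACG matches and a TATAAA, Fosb held TGACG followed by the EGR site GCGGGGGCG, Junb held 1 TGACG, and Egr2 held a CArG box between 2 TGACG matches, the second of them on the opposite strand. Both strands of the 250 bases before the start were searched in all 32817 mouse windows. TGACG was present in 17.7% of them, the full element TGACGTCA, which contains TGACG, in 1.55%, TATAAA in 12.4%, the EGR site, written GCGTGGGCG or GCGGGGGCG, in 3.06%, and the CArG box in 1.47%. Neither AP-1 site, TGACTCA or TGAGTCA, was found in a member's window, and 4.46% of all windows held one. Jun showed none of these motifs, nor did Jund, whose window ends upstream of the gene start in GENCODE, and Nr4a1 had 4 TGACG matches and an EGR site. Such matches are letters in a window and say nothing on binding in these cells.

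Library totals ran from 1720065 to 3685285 counts. The labelled cell type was borne out by its markers, since the summed level of 8 basophil markers was 7960 to 44300 CPM (counts scaled to the library total with TMM) while 5 mast cell markers summed to at most 8.86 CPM and 4 T or NK cell markers to at most 4.3 CPM. Itga2, which encodes CD49b, followed the sort, with a mean of 27.2 and 246 CPM in IL-3 immature and mature cells and 86 and 167 CPM in TSLP immature and mature cells, whereas Fcer1a mRNA, higher in IL-3 immature than IL-3 mature cells, overlapped between the TSLP groups. The library TSLP mature 1 stood apart from TSLP mature 2 and 3 (chi-square per degree of freedom of 46.2 and 58.4, against 2.18 to 14.7 for all other pairs of replicates), and it held the highest summed neutrophil markers, 650 CPM. Because it had the lowest TSLP mature value of 9 of the 10 members (all but Jund), results on members that rest on it are also given without it. In bulk RNA, a lower level can come from fewer cells of a type or from less RNA per cell, and these cannot be told apart. The 6 markers of monocytes, macrophages or dendritic cells together summed to 18.5 to 27.1 CPM in immature and 231 to 307 CPM in mature cells of IL-3 culture, and 91.6 to 121 CPM in immature and 347 to 545 CPM in mature cells of TSLP culture, with none at 0 in a whole group. Of the 4 that were tested, 4 were higher in IL-3 mature and 3 in TSLP mature cells than in the immature cells of the same culture, while between cytokines the calls ran both ways: with TSLP, Adgre1 was higher at both stages and Ly6c2 in immature cells, and Cx3cr1 was lower at both stages (log2 -4.02 in mature and -1.82 in immature cells). The 6 neutrophil markers summed to 34.6 to 74.8 CPM in immature and 179 to 270 CPM in mature cells of IL-3 culture, and 5.09 to 31.4 CPM in immature and 14.7 to 650 CPM in mature cells of TSLP culture. Between stages all 6 were called higher in TSLP mature cells and 1 of 6, Ly6g, in IL-3 mature cells. However, the sum was 650 CPM in TSLP mature 1 but 22.3 and 14.7 CPM in TSLP mature 2 and 3, within the TSLP immature range. S100a8, S100a9, Ltf and Camp overlapped between the TSLP stages, while Ngp and Ly6g did not. These marker calls are not given without TSLP mature 1. Over all genes tested, 12.9% were called higher in TSLP mature and 24.1% in IL-3 mature cells. The 6 B lineage markers summed to 5.69 to 6.92 CPM in immature and 1.77 to 2.54 CPM in mature cells of IL-3 culture, with 3 of 6 at 0 in each group, Igll1 among them, and to 24.5 to 31.2 CPM in immature and 13.8 to 130 CPM in mature cells of TSLP culture, with Vpreb1 at 0 in the immature cells. Of the 2 that were tested, Cd79a and Cd79b, both were higher in TSLP mature than in IL-3 mature cells (5.06 and 4.94). The size of these differences rested on few counts in IL-3 mature cells, 3 and 7 over the 3 libraries, and on TSLP mature 1. The B lineage sum was 130 CPM in that library and 13.8 and 14.7 CPM in TSLP mature 2 and 3. The 3 eosinophil markers summed to 8.95 CPM at the lowest, in TSLP immature cells, and 50.8 CPM at the highest, in TSLP mature cells. Siglecf was higher in mature than immature cells with IL-3 and TSLP (-2.14 and -2.41) and in TSLP mature than IL-3 mature cells (0.69). Prg2 was higher in IL-3 immature than IL-3 mature cells (2.85), and Epx was not tested. The part of these markers in the results below was not tested.

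Summed over the members, the level was highest in TSLP mature cells and lowest in IL-3 immature cells. They took 0.274% ± 0.0418 (SD, n = 3) of all counts in IL-3 immature, 0.412% ± 0.0599 in TSLP immature, 0.497% ± 0.0458 in IL-3 mature and 0.74% ± 0.113 in TSLP mature cells. Per kilobase of exon, Egr1 was the highest of them in both IL-3 groups and Ier2 in both TSLP groups. In IL-3 immature cells Egr1 stood at 321 ± 63.8 CPM per kilobase and Nr4a1 at 0.898 ± 0.288, and in TSLP mature cells Ier2 stood at 1084 ± 115 and Nr4a1 at 1.21 ± 0.144. The plot of the level in every library shows how far each gene followed this order.

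**Figure D1:**
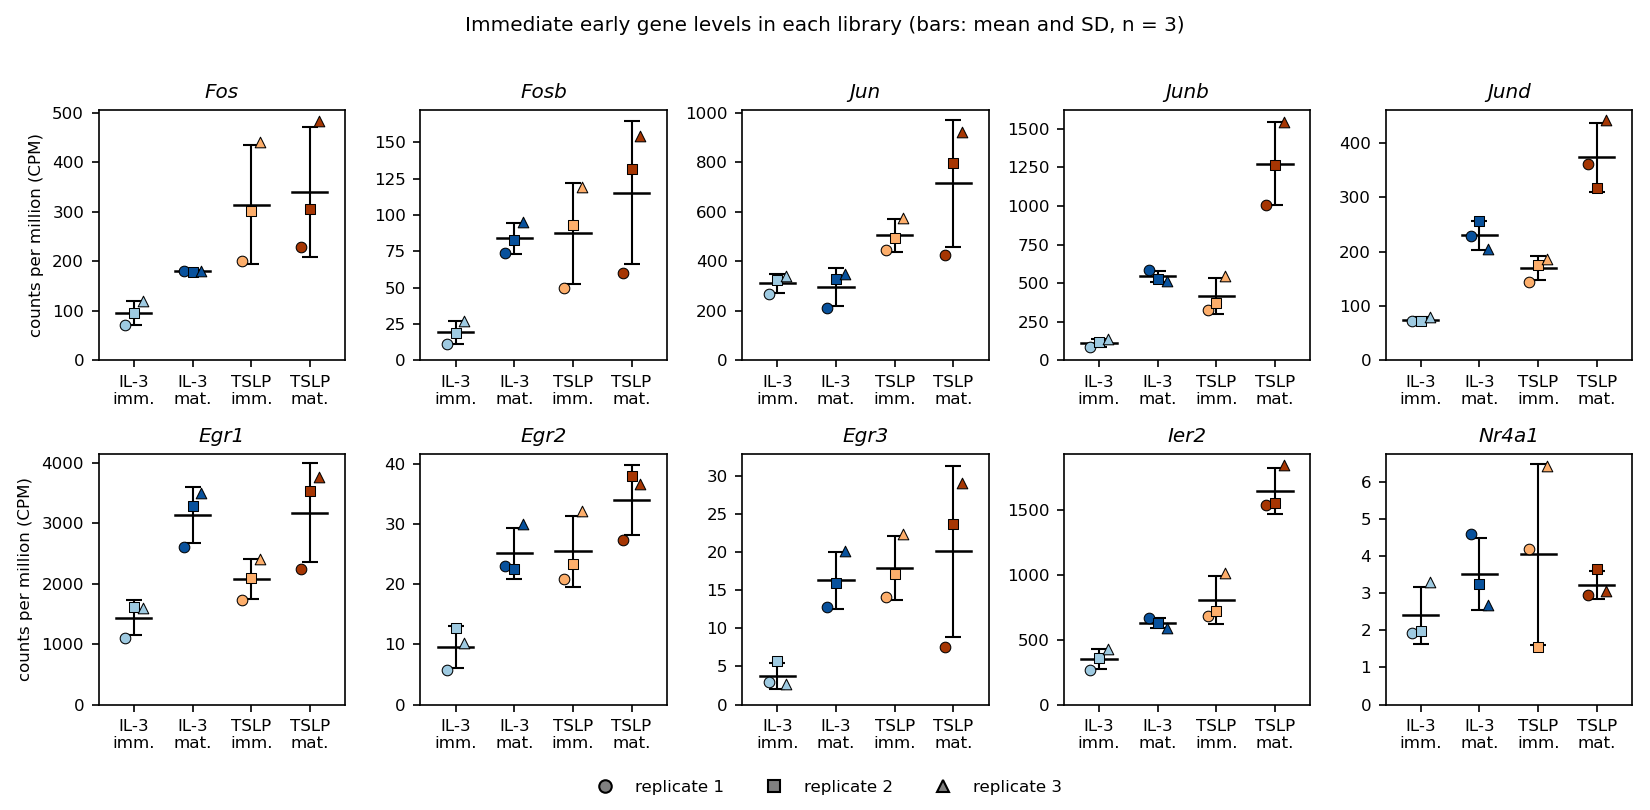
Level of each of the 10 genes (vertical axis, CPM, linear from 0) in the 12 libraries, with 1 symbol per library, the shape giving the replicate number, and a black line and bar for the mean and SD of 3 libraries. Junb, Jund and Ier2 reach their highest 3 values in TSLP mature cells, while Nr4a1 stays between 1.56 and 6.44 CPM in all groups.

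Fos, the founding member of the Fos family, was lowest in IL-3 immature cells and near equal in both TSLP groups. It was 72, 95.6 and 119 CPM in the IL-3 immature libraries and 180, 178 and 181 CPM in the IL-3 mature libraries. In TSLP culture it was 201, 301 and 440 CPM in immature and 228, 305 and 484 CPM in mature cells. All IL-3 immature values lay below all IL-3 mature values, and both lay below all TSLP values, whereas the TSLP stages overlapped throughout. The immature cells of IL-3 culture had 1.88-fold less Fos than the mature cells (log2 fold change -0.91 ± 0.29 SE, edgeR quasi-likelihood test with Benjamini-Hochberg adjustment, adjusted p = 0.0186), and in TSLP culture the difference was -0.11 ± 0.29 (edgeR adjusted p = 0.815). With TSLP, Fos was higher than with IL-3 by 3.28-fold in immature cells (log2 1.71 ± 0.3, edgeR adjusted p = 0.00163) and by 1.89-fold in mature cells (0.92 ± 0.29, adjusted p = 0.0314). The stage difference under IL-3 lost its call without IL-3 immature 1 or without IL-3 immature 2, and the mature cytokine difference lost it in 7 of the 12 fits that left out 1 library, with adjusted p up to 0.0949 and 0.187.

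Fosb, which encodes another Fos protein and, by splicing, the truncated ΔFosB, spanned a wider range than Fos. Its values were 11.6, 19.1 and 27 CPM in immature and 74.1, 83.1 and 95.2 CPM in mature cells of IL-3 culture, and 50, 93.4 and 119 CPM in immature and 59.9, 132 and 154 CPM in mature cells of TSLP culture. Only IL-3 immature cells stood apart, with every other pair of groups overlapping. The IL-3 immature level was 4.29-fold below the IL-3 mature level (log2 -2.1 ± 0.37, edgeR adjusted p = 0.000249) and 4.46-fold below the TSLP immature level (2.16 ± 0.37 for TSLP over IL-3, edgeR adjusted p = 0.00157). Between the TSLP stages the difference was -0.4 ± 0.34 (edgeR adjusted p = 0.423) and between the mature groups 0.45 ± 0.34 (adjusted p = 0.355). Without TSLP mature 1 they were -0.62 (edgeR adjusted p = 0.0928) and 0.68 (adjusted p = 0.075), still not called. As a share of Fos and Fosb counts together, Fosb made up 16.3% ± 2.33 in IL-3 immature, 21.6% ± 1.9 in TSLP immature, 25% ± 4.73 in TSLP mature and 31.8% ± 2.65 in IL-3 mature cells.

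Junb, a Jun family member that can act against Jun at some promoters, had the largest stage differences of the members in log2 terms in both cultures and differed between the cytokines at both stages. It was 85.5, 119 and 138 CPM in IL-3 immature and 587, 529 and 517 CPM in IL-3 mature libraries. With TSLP it was 326, 372 and 547 CPM in immature and 1008, 1268 and 1547 CPM in mature libraries. IL-3 immature cells were therefore lowest and TSLP mature cells highest, and TSLP immature and IL-3 mature cells, which come between, overlapped in 1 library. Immature cells had 4.76-fold less Junb than mature cells with IL-3 (log2 -2.25 ± 0.24, edgeR adjusted p = 1.56e-06) and 3.07-fold less with TSLP (-1.62 ± 0.24, adjusted p = 0.000102). Under TSLP the gene was 3.63-fold higher than under IL-3 in immature cells (1.86 ± 0.24, edgeR adjusted p = 0.000135) and 2.34-fold higher in mature cells (1.23 ± 0.23, adjusted p = 0.00212). All 4 Junb calls were kept under every alternative run.

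Jund, the Jun family member that many cells hold constitutively, ordered the 4 groups with no overlap. Its level was 72.5, 72.3 and 80.4 CPM in IL-3 immature, 145, 176 and 187 CPM in TSLP immature, 230, 257 and 204 CPM in IL-3 mature and 362, 317 and 442 CPM in TSLP mature cells. Every step in this order therefore separated all 3 libraries on either side. The stage difference was 3.07-fold with IL-3 (log2 -1.62 ± 0.18, edgeR adjusted p = 2.82e-06) and 2.21-fold with TSLP (-1.14 ± 0.18, adjusted p = 0.000211). TSLP cells exceeded IL-3 cells 2.25-fold when immature (1.17 ± 0.18, edgeR adjusted p = 0.000733) and 1.62-fold when mature (0.7 ± 0.18, adjusted p = 0.0109). Without IL-3 mature 3 or TSLP mature 3 the last of these calls was lost (adjusted p up to 0.072).

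Jun, the partner most often found with Fos in AP-1, had no called stage difference in either culture, while Junb and Jund had one in both. It was 268, 326 and 339 CPM in IL-3 immature and 210, 331 and 350 CPM in IL-3 mature libraries, which overlapped fully. In TSLP culture it was 447, 494 and 576 CPM in immature and 427, 796 and 923 CPM in mature cells, all above every IL-3 library. The log2 difference between the stages was 0.07 ± 0.26 with IL-3 (95% interval -0.48 to 0.62, edgeR adjusted p = 0.851) and -0.5 ± 0.26 with TSLP (interval -1.05 to 0.05, adjusted p = 0.171). TSLP mature cells exceeded IL-3 mature cells 2.41-fold (1.27 ± 0.26, edgeR adjusted p = 0.00343). TSLP immature libraries were all above the IL-3 immature ones, by 1.62-fold (0.7 ± 0.26), but this missed the threshold over all genes (edgeR adjusted p = 0.087). This difference was called without TSLP mature 1 (0.66, edgeR adjusted p = 0.019), without a filter on low counts (0.67), with only the groups compared (0.66) and with the replicate block (0.7), the lowest adjusted p of these being 0.0155. Without TSLP mature 1, which at 427 CPM was the lowest TSLP library, the log2 stage difference in TSLP culture was -0.67 with an edgeR adjusted p of 0.0187.

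The make-up of the Jun family shifted with these values. In IL-3 immature cells Jun gave 62.3% ± 1.21 (SD, n = 3) of the summed Jun, Junb and Jund counts and Junb 22.6% ± 2.34. In IL-3 mature cells the order was turned, with 27.6% ± 6.38 for Jun and 50.9% ± 5.44 for Junb. TSLP immature cells lay between, at 46.7% ± 2.44 and 37.7% ± 3.54, and TSLP mature cells, at 29.6% ± 5.14 and 54.2% ± 1.66, resembled IL-3 mature cells although their total was higher. Jund kept to a share of 13.3% to 23% in every library. Jun and Junb are both single-exon genes, but their mRNAs differ in length, so these are shares of counts and not of molecules.

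**Figure D2:**
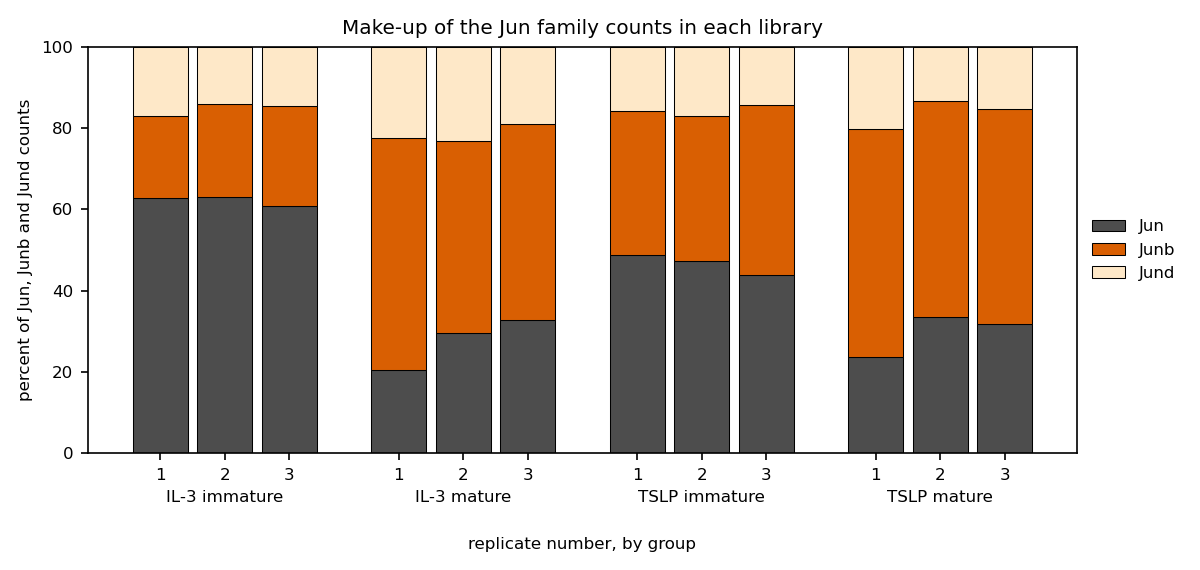
Percent of the summed counts of Jun, Junb and Jund (vertical axis, 0 to 100) that each gene took, with 1 bar for each of the 12 libraries. The Jun part is at least 60.9% in the 3 IL-3 immature libraries and at most 33.4% in the mature libraries of both cytokines.

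Egr1, which encodes the EGR protein best known from growth factor responses, was the member with the most counts and with the smallest log2 difference between cytokines at either stage. Its level was 1107, 1611 and 1594 CPM in immature and 2611, 3279 and 3505 CPM in mature cells of IL-3 culture, and 1733, 2097 and 2403 CPM in immature and 2242, 3527 and 3764 CPM in mature cells of TSLP culture. The IL-3 stages did not overlap, the mature groups overlapped almost fully, and in TSLP culture only TSLP mature 1 fell into the immature range. IL-3 immature cells had 2.18-fold less Egr1 than IL-3 mature cells (log2 -1.12 ± 0.23, edgeR adjusted p = 0.000976). In TSLP culture the difference of -0.61 ± 0.23 was just short of the threshold (edgeR adjusted p = 0.0634), and it passed without TSLP mature 1 (-0.72), in DESeq2 (-0.57) and with either replicate block (-0.59). Between cytokines the log2 difference was 0.02 ± 0.23 in mature cells (95% interval -0.47 to 0.51, edgeR adjusted p = 0.957) and 0.53 ± 0.23 in immature cells (adjusted p = 0.142), where all 3 TSLP libraries were nonetheless above all 3 IL-3 libraries.

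Egr2 and Egr3, close relatives of Egr1 and known in lymphocytes as restraints on activation, were far lower. Egr2 was 5.8, 12.8 and 10.2 CPM in immature and 23, 22.5 and 30.1 CPM in mature cells of IL-3 culture, and 21, 23.3 and 32.2 CPM in immature and 27.4, 38.1 and 36.8 CPM in mature cells of TSLP culture. Egr3 was 2.9, 5.69 and 2.64 CPM in immature and 12.8, 16 and 20.2 CPM in mature cells of IL-3 culture, and 14.1, 17.1 and 22.4 CPM in immature and 7.52, 23.7 and 29.1 CPM in mature cells of TSLP culture. For both genes IL-3 immature cells were below every other library, and the remaining groups overlapped. IL-3 immature cells had 2.52-fold less Egr2 (log2 -1.33 ± 0.27, edgeR adjusted p = 0.000864) and 4.14-fold less Egr3 (-2.05 ± 0.47, adjusted p = 0.00203) than IL-3 mature cells. Against them, TSLP immature cells had 2.56-fold more Egr2 (1.36 ± 0.27, edgeR adjusted p = 0.00416) and 4.55-fold more Egr3 (2.19 ± 0.46, adjusted p = 0.00605). The stage differences in TSLP culture were -0.42 ± 0.24 for Egr2 and -0.17 ± 0.37 for Egr3, and the mature cytokine differences 0.44 ± 0.24 and 0.3 ± 0.38, none of them called by edgeR (adjusted p from 0.204 to 0.787). Without TSLP mature 1 the stage differences were -0.46 for Egr2 and -0.47 for Egr3, and the mature cytokine differences 0.5 and 0.62. These were not called either (edgeR adjusted p from 0.0891 to 0.175). Egr3 rested on few counts in IL-3 immature cells, 34 over the 3 libraries.

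Ier2, a nuclear immediate early protein outside the AP-1 and EGR families, was higher with TSLP at both stages and higher in mature cells of both cultures. It was 269, 357 and 425 CPM in immature and 669, 629 and 587 CPM in mature cells of IL-3 culture, and 681, 721 and 1019 CPM in immature and 1539, 1558 and 1852 CPM in mature cells of TSLP culture. No neighbouring groups in this order overlapped, although the gap between IL-3 mature and TSLP immature cells was small. Stage differences were 1.79-fold with IL-3 (log2 -0.84 ± 0.21, edgeR adjusted p = 0.00353) and 2.04-fold with TSLP (-1.03 ± 0.21, adjusted p = 0.00175). Cytokine differences were 2.62-fold in mature (1.39 ± 0.21, edgeR adjusted p = 0.000509) and 2.3-fold in immature cells (1.2 ± 0.21, adjusted p = 0.00168). Each of the 4 calls was kept under every alternative run. Nr4a1, the orphan nuclear receptor used as a reporter of antigen receptor signals, was close to the limit of detection. Its counts were 4 to 19 per library, or 1.93, 1.99 and 3.3 CPM in immature and 4.61, 3.26 and 2.7 CPM in mature cells of IL-3 culture, and 4.19, 1.56 and 6.44 CPM in immature and 2.96, 3.67 and 3.06 CPM in mature cells of TSLP culture. All groups overlapped. The 95% intervals of its log2 differences were -1.59 to 0.5 between the IL-3 stages and -0.59 to 1.29 between the TSLP stages. Between cytokines they were -1.12 to 0.84 in mature and -0.26 to 1.76 in immature cells. For each comparison, differences within its own interval were not excluded.

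**Figure D3:**
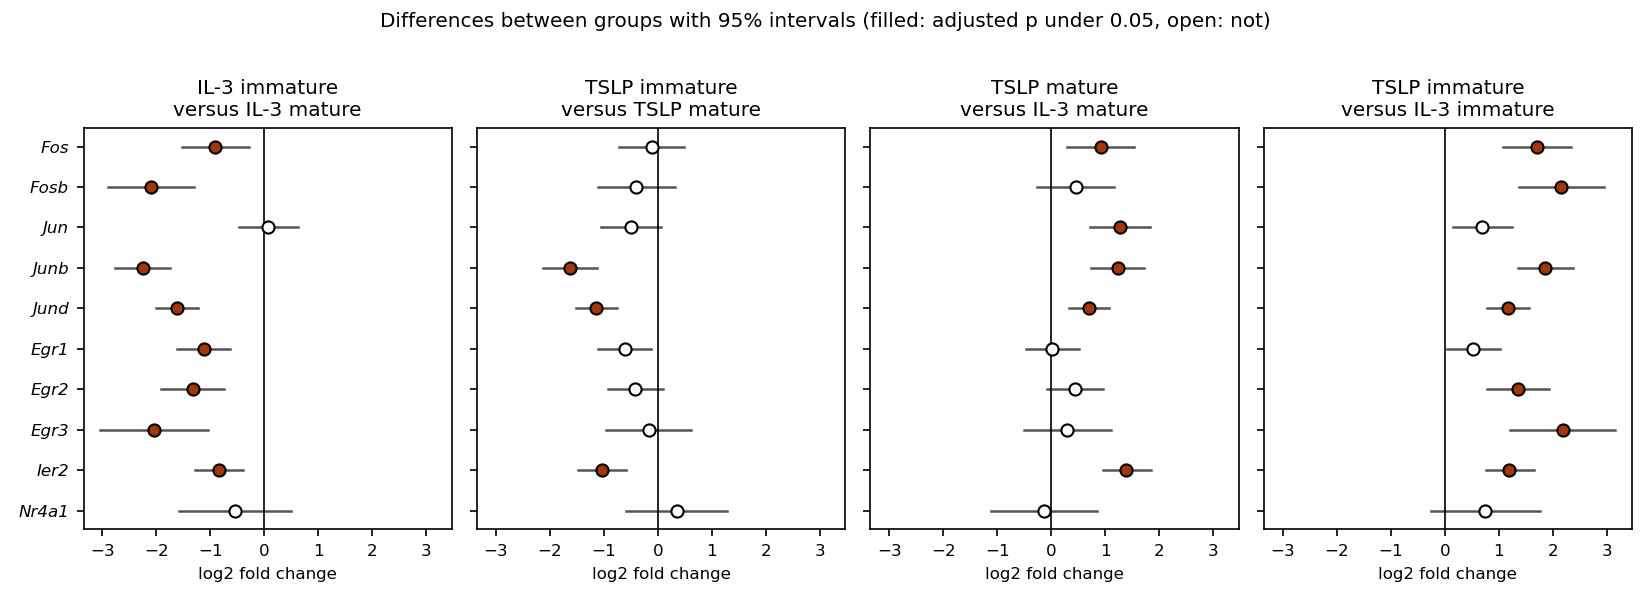
Log2 fold change of the first group over the second (horizontal axis) for the 10 genes in 4 comparisons, with lines for the 95% intervals of the edgeR fit and filled points for an adjusted p under 0.05. Called values lie below 0 in both comparisons of stages and over 0 in both comparisons of cytokines.

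Set against all genes, the members' calls were as follows. With IL-3, 8 of the 10 were higher in mature cells by the edgeR test, against 24.1% of all genes tested, and in 8 the 3 mature libraries lay above all immature libraries, against 30% of all genes. With TSLP, 3 members (Junb, Jund and Ier2) were called higher in mature cells, against 12.9% of genes, and 3 were without overlap in that direction, against 20.4%. Between the mature groups, 5 members (Fos, Jun, Junb, Jund and Ier2) were called higher with TSLP, against 12.4%, and 5 were without overlap, against 20.9%. Between the immature groups, 7 members were called higher with TSLP (Fos, Fosb, Junb, Jund, Egr2, Egr3 and Ier2), against 7.38%, and 9, all but Nr4a1, were without overlap, against 20.2%. No member was called in the opposite direction in any of these comparisons. The median log2 fold change of the members was -1.23, -0.46, 0.58 and 1.28 in the order given, beside -0.064, -0.032, 0.089 and 0.04 for all genes tested. Each group enters 2 of these comparisons, so they are not independent of each other, and the members were picked with earlier results of these data known.

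Whether the stage difference itself depended on the cytokine was tested as an interaction, in which a positive value means a smaller deficit of the immature cells with TSLP. It was called for 4.18% of all genes and, by edgeR, for 0 of the 10 members, 3 of which (Fosb, Egr2 and Egr3) had an unadjusted p under 0.05. Fosb had the smallest adjusted p, with an interaction of 1.7 ± 0.5 (95% interval 0.64 to 2.76, edgeR adjusted p = 0.0669), followed by Egr3 with 1.88 ± 0.6 (0.6 to 3.16, adjusted p = 0.0933). DESeq2 called 2 members, Fosb and Egr3. Without TSLP mature 1, the library with the lowest value of both genes in its group, edgeR also called them, with interactions of 1.42 and 1.52. Egr2 gave 0.92 ± 0.37 (edgeR adjusted p = 0.184), Fos 0.8 ± 0.41 and Junb 0.63 ± 0.33, while Ier2 gave -0.19 ± 0.29 and Jun -0.57 ± 0.37. For these 5 genes the interaction was not called with all libraries or under any of the alternatives run.

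Members varied together across libraries, including within groups. Over the 36 pairs of the 9 members other than Nr4a1, Pearson's r of log2 CPM across the 12 libraries was 0.49 to 0.98 with a median of 0.85, the highest for Junb and Jund and the lowest for Jun and Egr1. After the mean of each group was removed, the range was 0.11 to 0.95 with a median of 0.695, and here Junb with Ier2, at 0.95, and Fos with Junb, at 0.94, were high, while Jund and Egr2 had the lowest value. Replicates 3 of IL-3 immature and both TSLP groups held the top value of their group for Fos, Fosb, Jun, Junb and Ier2. All points share 12 libraries and their scaling, and the correlations are given as a description. The share of counts on Rn45s, a ribosomal RNA precursor, also differed between these libraries: it was 10.5% ± 2.7 in immature and 10.9% ± 1.24 in mature cells of IL-3 culture, and 18.5% ± 1.45 in immature and 14% ± 4.65 in mature cells of TSLP culture (SD, n = 3). In each of the 4 groups the library with the highest share also had the highest sum of the 10 members, and in TSLP mature cells the share ran from 8.68% to 17.4% while the sum ran from 5905 to 9235 CPM. The part of this share in the members' levels was not tested.

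Among the 7542 tested genes that averaged 10 CPM or more, those most like the members over the 12 libraries are given as a description. None of them was a member, but members were only a few of these candidates, so no conclusion is drawn from that. Junb was closest to Nadk, the NAD kinase (r = 0.995), and to Ier5, a further immediate early gene (0.993), and then to Rassf5 (0.988). Jund was close to Gadd45g (0.993) and Sesn2 (0.989). The nearest gene to Fos was Dnajb1, which encodes an Hsp40 co-chaperone (0.964), ahead of Mllt4 (0.962) and Gosr2 (0.934). Fosb had Abr (0.968), Btg2, an antiproliferative immediate early gene (0.966), and Nfkbiz (0.965) nearest to it. Egr2 also had Btg2 (0.976) among its 3, beside F630111L10Rik (0.98) and Tbc1d1 (0.974). Egr1 was nearest to Pde3b and Tiparp (both 0.977) and Whsc1l1 (0.97), Egr3 to Pdlim5 (0.967), Hgf (0.952) and Dmxl2 (0.948), Ier2 to Myo1c and Itm2c (both 0.982) and Slc3a2 (0.98), and Jun to Kctd12 (0.94), Gnaq (0.938) and Usp22 (0.934).

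Other immediate early genes, a list of 20 of which 14 were tested, moved in the same directions as the members between stages. With IL-3, 12 of the 14 were called higher in mature cells, against 24.1% of all genes tested, and 0 lower. The list median was -1.83 for immature over mature cells. With TSLP, 8 were called higher in mature cells, against 12.9% of genes, and 0 lower (median -0.88). Zfp36, which encodes tristetraprolin, a protein that targets AU-rich mRNAs for decay, was 348 ± 105 CPM in immature and 2934 ± 727 CPM in mature cells of IL-3 culture, and 1034 ± 195 CPM in immature and 2559 ± 231 CPM in mature cells of TSLP culture. It was 8.42-fold lower in IL-3 immature than in IL-3 mature cells. Plk2 had the largest log2 difference in IL-3 culture (-3.34, edgeR adjusted p = 1.39e-05) and Sgk1 in TSLP culture (-1.87, adjusted p = 1.23e-05). Plk2 rested on few counts in IL-3 immature cells, 10 over the 3 libraries, which also enter its interaction. In the immature groups 8 were higher with TSLP, against 7.38% of genes, and 0 lower, led by Klf2 (2.81, edgeR adjusted p = 0.00355) and Ier5 (2.28, adjusted p = 3.67e-05). Klf2 had only 6 counts over the 3 IL-3 immature libraries. In the mature groups the list split, with Rhob (1.61) and Ier5 (1.5) higher with TSLP and Ier3 lower (-1.24), and its median was -0.17. Over all genes, 12.4% were called higher with TSLP there. Csrnp1, Plk2 and Zfp36 had a called interaction (1.18, 2.42 and 1.77).

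Further AP-1 subunits and small MAF partners had a median log2 difference of -0.96 between the IL-3 stages and of 0.67 between the immature groups. Of 8 tested among 10, 4 were higher in mature cells with IL-3 (Fosl2, Maff, Mafg and Mafk) and 3 with TSLP (Fosl2, Mafk and Atf3), and the same 4 as with IL-3 were higher with TSLP in immature cells. The shares of all genes called in these directions were 24.1%, 12.9% and 7.38%. Fosl2, which encodes the Fos-related Fra-2, was 29.9 ± 0.873 CPM in immature and 94.8 ± 13 CPM in mature cells of IL-3 culture, and 49 ± 7.29 CPM in immature and 100.6 ± 25.3 CPM in mature cells of TSLP culture. Atf3, an AP-1 partner induced by stress, stayed under 10 CPM in mean in every group, and Batf2 and Batf3 were too low to test. Between the mature groups 0 of the 8 were called by edgeR. Among SRF and its cofactors, which act at CArG boxes, Elk3, Mkl1 and Srf (3 of 6) were higher in IL-3 mature than IL-3 immature cells, Mkl1 alone in TSLP culture, and Elk3 alone was higher with TSLP in immature cells. With 6 genes tested, these counts stand beside the same shares of all genes. Nab1 and Nab2, corepressors that bind EGR proteins and of which Nab2 is itself an EGR target, were both higher in IL-3 mature cells (-1.27 and -1.67 for immature over mature). Egr4 was too low to test.

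Of 14 ERK, JNK and p38 pathway kinases, 6 were higher in IL-3 mature cells and 4 in TSLP mature cells, against 24.1% and 12.9% of all genes tested. The 1 kinase that differed between cytokines at either stage was Rps6ka1, which encodes the ERK-activated kinase RSK1, and it was higher with TSLP at both (0.59 and 0.52). Over all genes, 12.4% were called higher with TSLP in mature and 7.38% in immature cells. Mapk14, which encodes p38α, had the largest called stage difference of the list in both cultures (-0.93 with IL-3 and -0.95 with TSLP). Of 6 factors that bind AU-rich elements, Zfp36, Zfp36l1 and Zfp36l2 were called higher in mature cells of both cultures, against 24.1% and 12.9% of all genes. Hnrnpd, which encodes AUF1, was called higher in immature cells of both (0.83 and 0.88) and Khsrp in IL-3 culture (0.84). Of the 10861 genes tested, 2404 were called in that direction with IL-3 and 1329 with TSLP. Elavl1 was not called between stages in either culture. Zfp36l1 had a called interaction (1.47).

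Known target genes of AP-1 and EGR factors, 9 of 10 tested, were all called higher in IL-3 mature than in IL-3 immature cells, with a list median of -2.22 for immature over mature cells. Over all genes tested, 24.1% were called in that direction. Ccl4, a chemokine gene, had the largest difference (-3.17, edgeR adjusted p = 4.61e-09), with 105 ± 18.2 CPM in IL-3 immature and 942 ± 31.5 CPM in IL-3 mature cells. Plaur, which encodes the urokinase receptor, followed (-3.11), and Ccl3, the most abundant of the list, was 776 ± 149 CPM in immature and 3883 ± 487 CPM in mature cells of IL-3 culture. In TSLP culture 4 were called higher in mature cells (Ccl3, Ccl4, Il6 and Plaur), against 12.9% of genes. TSLP immature cells exceeded IL-3 immature cells in 7 of the 9, beside 7.38% of genes, with Il6 at 349 ± 95.2 against 79.9 ± 6.24 CPM (log2 2.13, edgeR adjusted p = 2.22e-05). The type 2 cytokine genes Il4 and Il13 were not among these 7 (0.78 and 0.22), and Il13 was the 1 gene of the list that differed between the mature groups, lower with TSLP (-1.72, edgeR adjusted p = 0.00328). Interactions were called for Ccl4, Il6, Plaur and Ptgs2 (1.58, 1.52, 1.33 and 1.83). No statement on control of these genes by the members follows from these counts.

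**Figure D4:**
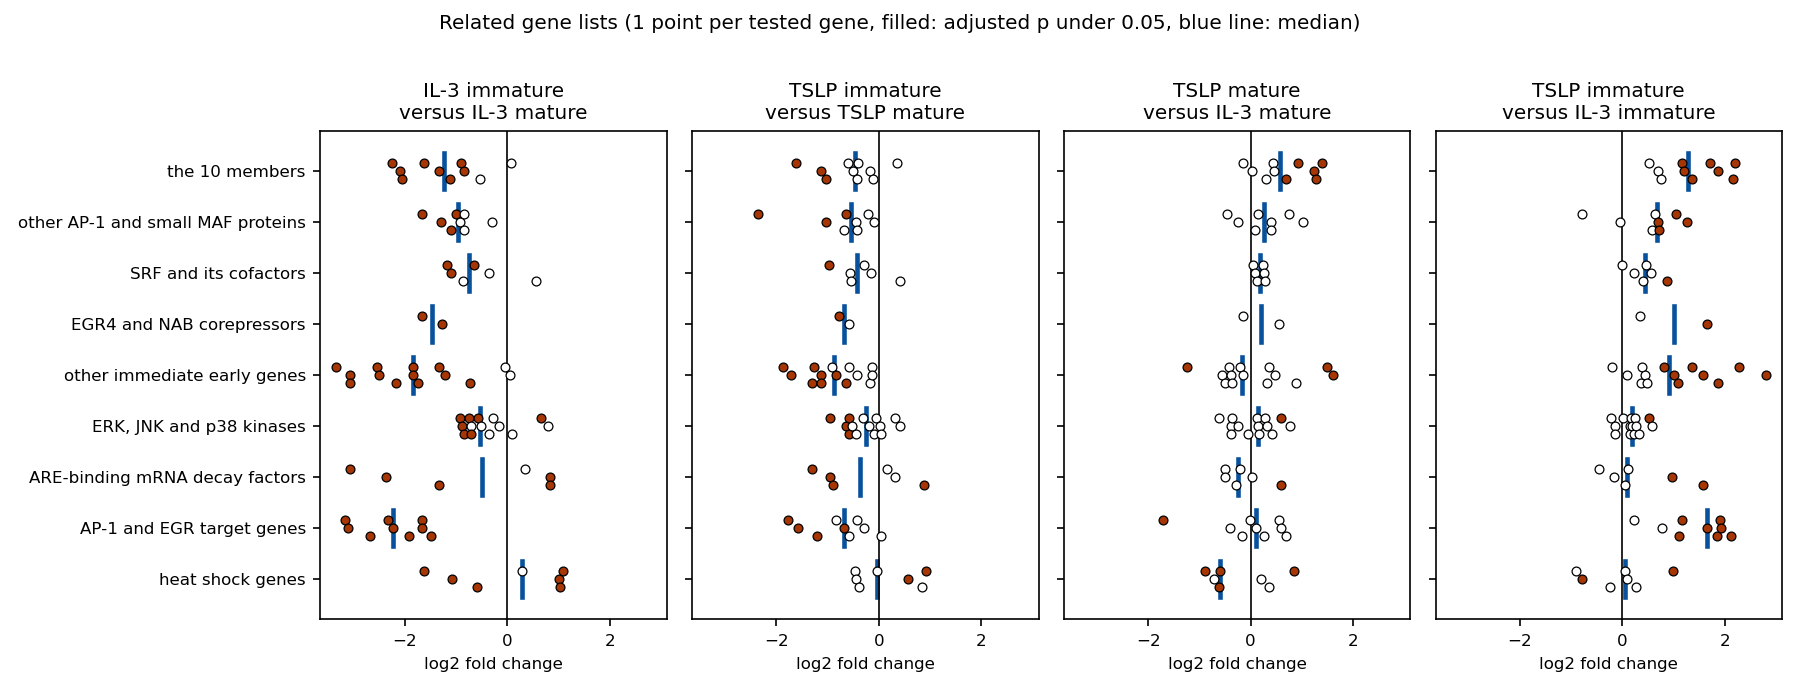
Log2 fold change (horizontal axis) of the first group over the second for the 10 members and 8 related gene lists in 4 comparisons, with 1 point for each tested gene, filled where the adjusted p was under 0.05, and a blue line at the median. The AP-1 and EGR target genes have medians of -2.22 and 1.65 in the first and last panels and 0.1 in the panel of the mature groups.

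Heat shock genes, whose products are chaperones and which respond to cell stress, did not move as a block. Their summed level was 1970 to 2270 CPM in immature and 1360 to 1600 CPM in mature cells of IL-3 culture, and 1790 to 1900 CPM in immature and 1510 to 1710 CPM in mature cells of TSLP culture. The highest sums were in IL-3 immature cells, where the members were lowest. The lowest sum was in IL-3 mature cells, whereas the members were highest in TSLP mature cells. Hspa8, Hsp90ab1 and Hsp90aa1 were the most abundant of the list. The stress-induced Hspa1a and Hspa1b were too low to test, with group means of at most 0.84 CPM. In IL-3 culture 3 of 7 tested were higher in immature cells (Hsp90aa1, Hsp90ab1 and Hspe1) and 3 lower (Dnaja1, Dnajb1 and Hsph1), beside 2404 higher and 2615 lower of the 10861 genes tested. In TSLP culture 2 of the 7, Hsp90aa1 and Hsp90ab1, were called higher in immature cells and 0 lower, beside 1329 higher and 1403 lower of all genes. Between cytokines, Dnajb1 was the 1 heat shock gene called higher with TSLP, at both stages (0.85 in mature and 0.99 in immature cells). The shares of all genes called in that direction were 12.4% and 7.38%. Hsp90aa1 was called lower with TSLP at both stages (-0.61 and -0.78), beside 1289 of all genes in mature and 641 in immature cells. Dnaja1 (-0.59) and Hsph1 (-0.89) were called lower with TSLP in mature cells only. Their part in the members' levels was not tested.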

How the data were processed

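The values are raw read counts per gene symbol, deposited by the authors as 1 table with a column for each library. Per the study's methods, oligo(dT)-captured mRNA was amplified as whole-transcriptome cDNA, sequenced on an Ion Proton instrument, trimmed with Cutadapt, aligned with Bowtie2 to mouse reference RNA and counted. The methods name GRCm38, and the submitters' processing notes name GRCm39 and mm10. The sources used here do not give the handling of strand, multi-mapped reads or molecular identifiers, so Jun cannot be told apart from its antisense gene Junos (0 to 6 counts per library), and reads are not independent molecules. The 1 unnamed row, equal to the column total, was left out.

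Counts were tested with edgeR 4.0.16 (quasi-likelihood F test, R 4.3.3) after filterByExpr (minimum count 10, minimum total 15) and TMM scaling, in 1 fit of 12 libraries with a mean per group and no block. Benjamini-Hochberg adjustment ran over 10861 genes and calls were made at 0.05. The study used TCC, which was not used here. CPM are TMM-scaled, correlations used log2 CPM with a prior count of 2, and gene lengths came from GENCODE exons. DESeq2 1.42.0, other scalings, filters, a replicate block and leaving out each library were alternatives. Replicates are separate cultures per the study, and whether the stages of a culture number share a culture is not given. The members and lists were chosen with earlier results of these data known. Members are all named. Of each other list, the 3 most abundant genes and up to 2 per comparison with the largest called change could be named, and further genes named from short counts were chosen after their values were seen. Some results on single genes are not reported here.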

Additional observations from a re-analysis of the deposited data

How the results depend on the processing

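Over 22 alternatives (other scalings and filters, DESeq2, fits of fewer groups, blocks, and leaving out each library), 1064 values of single members were recomputed, of which 1005 kept their direction and side of the threshold, 11 lost a call, 23 gained one and 25 changed sign. Every change of sign concerned a log2 difference that was not called. Leaving out 1 library gave Jun between the IL-3 stages -0.14 to 0.24, Fos between the TSLP stages -0.33 to 0.29, Egr3 there -0.47 to 0.26, Nr4a1 there -0.02 to 0.76, and between the mature groups Egr1 -0.17 to 0.14, Egr3 -0.11 to 0.62 and Nr4a1 -0.34 to 0.11. Egr1 between the mature groups was -0.01 with the size factors of DESeq2, in DESeq2 and with only the groups compared, -0.02 with a filter of 10 CPM in 3 libraries, -0.03 with TMM on uncalled genes and 0 with the replicate block.

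When each library was left out in turn, members called ran from 7 to 8 between the IL-3 stages, 3 to 5 between the TSLP stages, 3 to 5 between the mature groups, 7 to 8 between the immature groups and 0 to 2 for the interaction. Genes called ran from 4193 to 5676, 1773 to 3456, 1657 to 2968, 588 to 2243 and 240 to 723 in the same order. The lowest count between the immature groups came without TSLP immature 3 (588), and the highest without TSLP mature 1 (2243). Fitting only the mature groups called 1722 genes between them. The interaction was called for 2 members, Fosb and Egr3, by DESeq2, without a filter, and with either block, and for 0 in the remaining settings apart from the leave-one-out fits. The cause of these changes was not tested.

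Replicate numbers are shared by the groups, and likeness by number was uneven. Of 18 same-numbered pairs, 6 deviated together with r over 0.1 (range -0.08 to 0.39), and 7 of 12 libraries correlated best with their own number. Whether a number marks a shared culture cannot be told from these values. With the replicate number as a block, edgeR called 8, 4, 5, 9 and 2 members in the 5 tests, and 5248, 3067, 2850, 1893 and 557 genes. The members gained were Jun and Egr1 between the immature groups, Egr1 between the TSLP stages, and Fosb and Egr3 for the interaction. Nr4a1 had 4 to 19 counts per library.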
